A study of Homo sapiens with 9 samples.

Results

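Genes of glycolysis and of the transcriptional response to low oxygen were followed in T47D cells, a human estrogen receptor-positive (ER+) breast cancer line. The 39 genes were chosen by name: glycolytic enzymes, carriers of glucose and lactate, kinases that inhibit pyruvate dehydrogenase, genes known as targets of hypoxia-inducible factor (HIF) including the angiogenic ligand VEGFA, and the HIF alpha subunits HIF1A and EPAS1. Of these, 38 were found among the 27635 gene symbols used, and CA9, a carbonic anhydrase, was not analysed here. A filter on low values (below) was passed by 37, and SLC2A3, a neuronal glucose carrier, stayed under it with 0.101 to 1.02 TPM over all libraries.

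Glycolysis splits glucose to pyruvate, and lactate dehydrogenase turns pyruvate to lactate, which leaves the cell through monocarboxylate carriers. HIF is a pair of proteins of which the alpha subunit is hydroxylated by the EGLN enzymes when oxygen is present and then destroyed through VHL, so that its amount is set mainly at the protein, not at the transcript. Stabilised HIF raises transcription of most glycolytic enzymes and of VEGFA, a secreted growth factor for blood vessels, and breast tumors are known for high expression of both.

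T47D cells were grown alone (monoculture, MC), in direct contact with HS5 cells (contact culture, CC), or in medium conditioned by HS5 cells (conditioned medium, CMed), with 3 libraries of total RNA per condition. HS5 is a human bone marrow stromal line used as a mesenchymal stromal cell (MSC). The contact culture was seeded with 10% cancer cells and 90% MSCs, and cancer cells were recovered from it on beads that bind EPCAM, a surface protein of epithelial cells. All conditions shared 24 hours in full medium and 48 hours in medium with low glucose, 1% FBS and 10 nM estradiol, as the labels describe the cultures. The study used conditioned medium to control for soluble molecules, so the 3 comparisons address what contact and what soluble products of HS5 cells each go with. The labels name no separate cultures behind the replicates, so p values measure only the spread between these samples, which may be technical. Neither oxygen nor glucose in the cultures was among the measurements used here, and 1 cancer line and 1 stromal line were compared.

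The deposited values were taken to be the natural log of TPM plus 1, a unit inferred from the library sums. TPM is a level of a transcript per length, scaled to 1 total per library. The 16696 genes with at least 0.5 TPM in at least 3 libraries were compared with limma as log2(TPM + 1), a log2 fold change being the difference of group means on this scale, which understates the change of low genes. A gene was counted as changed with a Benjamini-Hochberg adjusted p under 0.05 over all genes tested. TPM keeps no read numbers, so the depth behind a value is unknown beyond the number of reads per sample that the labels give. Between 18166 and 21178 genes were listed above 0. Across genes, Pearson's r was 0.942 and 0.939 between monoculture replicate 2 and the other monoculture libraries, against 0.956 to 0.972 for other pairs within a condition and 0.937 to 0.963 for pairs of different conditions, so monoculture replicate 2 stood apart from its group and results that rest on it are given with and without it. EPCAM ranged over 168 to 206 TPM in monoculture, over 137 to 160 TPM after contact culture, and over 127 to 145 TPM with conditioned medium. Of 7 epithelial markers, GATA3 was the 1 that fell in contact culture against monoculture, and 0 rose. Of all genes tested, 2.84% fell and 2.15% rose there. Of 20 stromal markers, 8 passed the filter and 3 (VIM, FN1 and CAV1) rose in contact culture against monoculture, of which CAV1 passed the filter through contact culture alone and was bound to differ. Of the 20, 10 stayed under 1 TPM in every contact culture library. At 0 in at least 1 contact culture library were 8, among them PDGFRB, THY1, DCN, COL3A1 and POSTN. COL3A1 and POSTN were also at 0 in every monoculture library. DCN was at 1.755, 0 and 1.147 TPM in contact culture against 0.281, 0 and 0.479 TPM in monoculture. The 20 summed to between 259 and 359 TPM in monoculture, between 377 and 481 TPM in contact culture, and between 279 and 335 TPM with conditioned medium, but LGALS1, which is abundant in T47D cells grown alone, made up at least 80.8% of this sum in every library. In bulk RNA, fewer cells of a type and less RNA per cell cannot be told apart.

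VEGFA rose in contact culture. Its levels were 6.82, 5.54 and 6.58 TPM in monoculture replicates 1, 2 and 3. They were 17.1, 23.3 and 21.0 TPM in contact culture. In conditioned medium they were 12.4, 11.2 and 10.7 TPM. The 3 conditions did not overlap in any library, with conditioned medium between the other conditions. The gene (ENSG00000112715.21) lies on chromosome 6 of GRCh38 from 43770184 to 43786487 on the plus strand. The monoculture mean was 6.31 ± 0.683 TPM (SD, n = 3), the contact culture mean was 20.4 ± 3.15 TPM (SD, n = 3), their ratio was 3.24, and the log2 fold change was 1.55 (standard error 0.18, 95% interval 1.15 to 1.94, adjusted p = 0.00155 from limma). The call was kept in each of the 9 fits that left out a library (adjusted p 0.00221 to 0.0154).

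In conditioned medium VEGFA averaged 11.5 ± 0.866 TPM (SD, n = 3). This was 1.82 times the monoculture mean, and the log2 fold change of 0.77 (95% interval 0.38 to 1.17, adjusted p = 0.0765 from limma) was not past the threshold. It was past it when libraries were scaled by relative log expression (log2 fold change 0.90, adjusted p = 0.0495), but in none of the fits that left out a library. Contact culture stood above conditioned medium by 0.78 (95% interval 0.38 to 1.17, adjusted p = 0.123), also not past the threshold. The same monoculture libraries serve both comparisons with monoculture, so their values for a gene share part of their error.

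Among other genes of this signal, VEGFB, a relative of VEGFA that binds the receptor FLT1, was at 15.6, 26.4 and 13.7 TPM in monoculture. It was at 47.6, 22.9 and 44.4 TPM in contact culture, where replicate 2 lay within the monoculture range. Of the 13 further genes of the list of VEGF ligands, receptors and angiogenic factors, 5 were tested and 0 changed in any comparison. The receptor KDR was listed at 0 to 0.0517 TPM and stayed under the filter. ANGPTL4 is a secreted HIF target that inhibits lipoprotein lipase. It was at 0.413, 2.97 and 1.98 TPM in monoculture, at 2.38, 3.21 and 2.06 TPM in contact culture and at 0.612, 1.55 and 0 TPM in conditioned medium. Contact culture lay above conditioned medium without overlap (log2 fold change 1.13, 95% interval 0.14 to 2.12), but the adjusted p was 0.34.

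**Figure D1:**
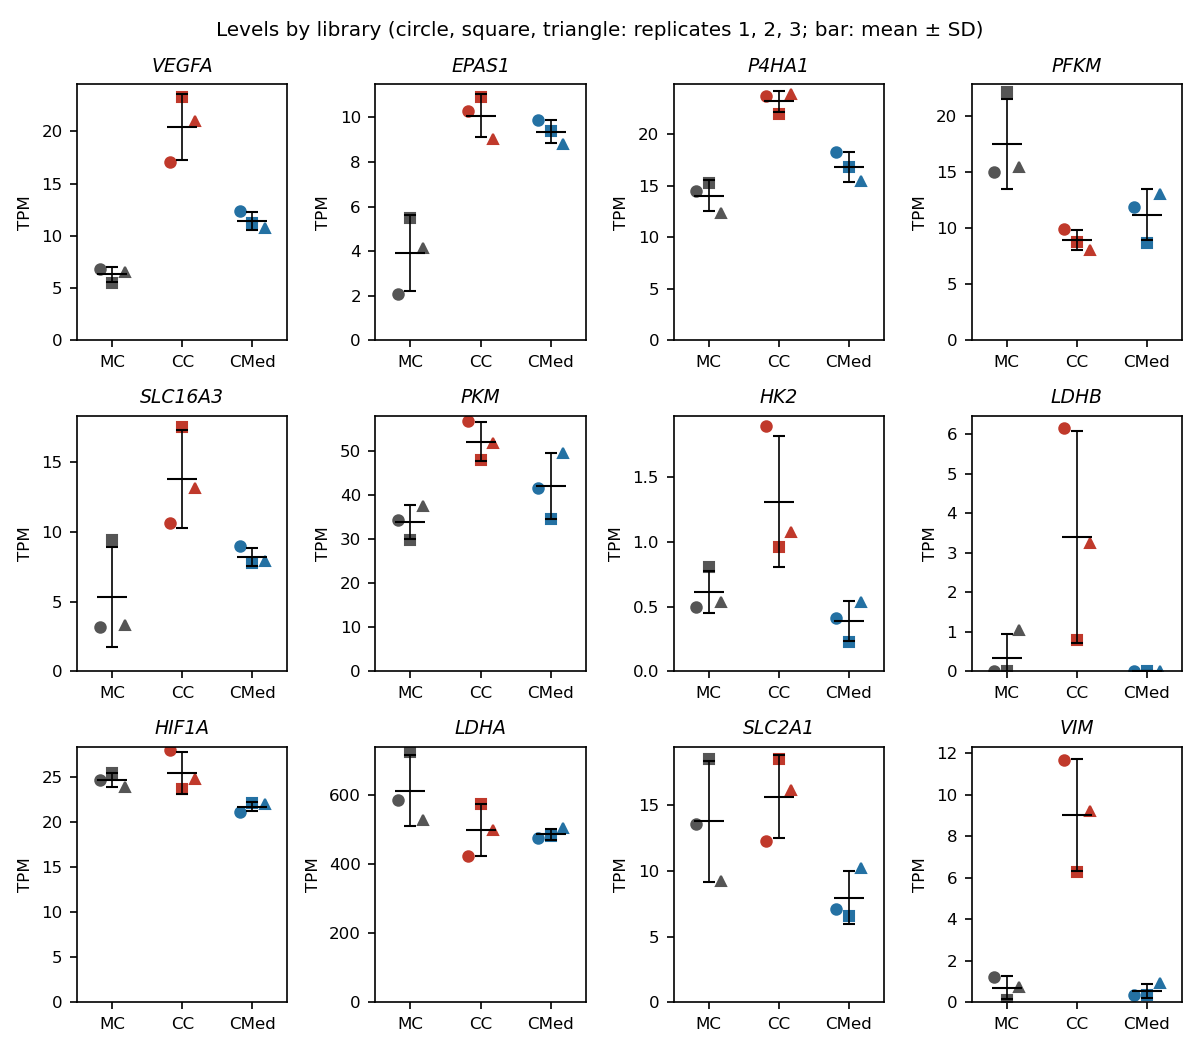
Levels in TPM (vertical axis, from 0) of 11 glycolysis and hypoxia genes and of the stromal marker VIM in monoculture (MC), contact culture (CC) and conditioned medium (CMed), with 1 point per library and bars for mean ± SD (n = 3). VEGFA lay at 5.54 to 6.82 TPM in monoculture against 17.1 to 23.3 TPM in contact culture, while HIF1A lay between 21.1 and 28.1 TPM in all 9 libraries.

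Of the alpha subunits of HIF, EPAS1 was called in contact culture and HIF1A in no comparison. HIF1A, the subunit most tissues use, was the more abundant, with 24.7, 25.4 and 23.9 TPM in monoculture. It was at 28.1, 23.6 and 24.8 TPM in contact culture and at 21.1, 22.1 and 22.0 TPM in conditioned medium. The libraries of monoculture and contact culture overlapped, and the log2 fold change was 0.04 (95% interval −0.27 to 0.36, adjusted p = 0.908 from limma).

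EPAS1, which encodes HIF-2 alpha and is best known from endothelium and kidney, rose in contact culture. It was at 2.10, 5.49 and 4.16 TPM in monoculture. It was at 10.3, 10.9 and 9.03 TPM in contact culture and at 9.86, 9.40 and 8.82 TPM in conditioned medium. Every library of either HS5 condition lay above every monoculture library, and the HS5 conditions overlapped each other. EPAS1 differed from monoculture by a log2 fold change of 1.23 in contact culture (standard error 0.26, 95% interval 0.65 to 1.82, adjusted p = 0.0297 from limma) and 1.14 in conditioned medium (95% interval 0.55 to 1.73, adjusted p = 0.0785). The call in contact culture was lost on leaving out any library other than monoculture replicate 2 (adjusted p up to 0.0958). Without monoculture replicate 2, both contact culture (adjusted p = 0.0085) and conditioned medium (adjusted p = 0.0160) passed. Of the summed TPM of both subunits, EPAS1 made up between 7.82% and 17.8% in monoculture, between 26.7% and 31.6% in contact culture, and between 28.6% and 31.8% with conditioned medium. This share, too, did not overlap between monoculture and either HS5 condition.

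The HIF hydroxylases EGLN1 and EGLN3 are part of the same circuit, since they mark HIF alpha for VHL and EGLN3 is itself a HIF target. EGLN3 was at 2.56, 1.79 and 2.63 TPM in monoculture, at 3.19, 3.55 and 4.47 TPM in contact culture and at 1.49, 1.82 and 1.95 TPM in conditioned medium. Contact culture lay above all other libraries, but the log2 fold change against monoculture (0.51, 95% interval 0.03 to 0.99, adjusted p = 0.217) and against conditioned medium (0.78, 95% interval 0.30 to 1.25, adjusted p = 0.177) missed the threshold. EGLN1 ranged from 4.85 to 11.8 TPM, with overlap between all conditions. EGLN2, a more abundant HIF hydroxylase outside the 39, was at 18.9, 43.0 and 23.3 TPM in monoculture. It was at 65.15, 59.6 and 48.3 TPM in contact culture and at 30.0, 43.7 and 22.6 TPM in conditioned medium. Its contact culture libraries lay above all others, but it was called in no comparison (adjusted p = 0.32 from limma against conditioned medium). Of 13 further regulators of HIF tested, 0 were higher and VHL was lower in contact culture (log2 fold change −0.79, adjusted p = 0.0393 from limma). Of all genes tested, 2.15% rose and 2.84% fell in contact culture. VHL is the ubiquitin ligase subunit that recognises hydroxylated HIF alpha. VHL was at 18.6, 27.5 and 20.6 TPM in monoculture, but at 11.4, 12.6 and 12.7 TPM in contact culture. Of the 9 fits that left out a library, the one without monoculture replicate 2 kept this call (adjusted p 0.0342), and the others reached 0.132.

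P4HA1, the catalytic subunit of collagen prolyl 4-hydroxylase and a HIF target, rose in contact culture. It was at 14.5, 15.3 and 12.4 TPM in monoculture, at 23.6, 22.0 and 23.9 TPM in contact culture and at 18.3, 16.8 and 15.4 TPM in conditioned medium. The 3 conditions did not overlap, in the same order as for VEGFA. P4HA1 had a log2 fold change against monoculture of 0.69 in contact culture (standard error 0.15, 95% interval 0.34 to 1.03, adjusted p = 0.0362 from limma), and 0.25 in conditioned medium (95% interval −0.10 to 0.59, adjusted p = 0.473). Of the 9 fits that left out a library, the one without monoculture replicate 2 kept the first call (adjusted p 0.0182), and the others reached 0.153. P4HA2, its sister subunit, ranged from 3.83 to 9.38 TPM with overlap between all conditions.

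Sequences upstream of transcription starts are shown for both of the called HIF-related genes that had a window, EPAS1 and P4HA1, and for BNIP3 and PGK1, which are described further on and hold the motif more than once. Each is the 250 bases before a RefSeq start on GRCh38.p14, read on the strand of the gene, with capitals for ACGTG or GCGTG, the core letters that HIF binds, on either strand (CACGT or CACGC on the other), overlapping matches being counted as 1. EPAS1 lies at chr2:46297157-46297406 on the plus strand, P4HA1 at chr10:73096867-73097116 on the minus strand, BNIP3 at chr10:131981924-131982173 on the minus strand and PGK1 at chrX:78103998-78104247 on the plus strand.
EPAS1: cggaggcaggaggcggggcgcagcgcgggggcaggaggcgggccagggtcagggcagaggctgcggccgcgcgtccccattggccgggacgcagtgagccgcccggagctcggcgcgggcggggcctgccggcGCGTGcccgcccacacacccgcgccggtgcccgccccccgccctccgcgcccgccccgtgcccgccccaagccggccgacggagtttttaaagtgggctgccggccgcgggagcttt
P4HA1: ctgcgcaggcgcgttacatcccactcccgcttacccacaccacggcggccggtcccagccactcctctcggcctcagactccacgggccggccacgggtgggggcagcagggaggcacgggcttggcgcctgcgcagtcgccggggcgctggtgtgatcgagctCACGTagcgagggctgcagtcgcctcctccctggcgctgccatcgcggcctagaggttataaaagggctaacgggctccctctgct
BNIP3: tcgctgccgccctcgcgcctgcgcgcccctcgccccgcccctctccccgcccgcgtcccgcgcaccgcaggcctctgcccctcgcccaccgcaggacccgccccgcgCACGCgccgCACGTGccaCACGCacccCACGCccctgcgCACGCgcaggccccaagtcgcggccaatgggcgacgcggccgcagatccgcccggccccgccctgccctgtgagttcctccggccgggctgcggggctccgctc
PGK1: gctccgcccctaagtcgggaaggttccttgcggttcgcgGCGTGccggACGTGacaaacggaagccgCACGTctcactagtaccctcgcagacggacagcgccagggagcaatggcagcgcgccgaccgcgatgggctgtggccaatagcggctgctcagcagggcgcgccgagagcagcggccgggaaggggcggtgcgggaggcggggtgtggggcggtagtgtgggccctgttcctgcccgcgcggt
EPAS1 and P4HA1 each held 1 match, PGK1 3 and BNIP3 5. Of all 35116 windows of this length, 43.2% held at least 1 and 5.56% held 3 or more. Of the 39 genes, 34 had at least 1 window and 28 of these had a match in one, against 47.4% of the 27305 genes with a window. The 34 genes had more windows each on average than all genes, which raises the number with a match in any window. By windows, 36 of 61 (59.0%) matched, against 43.2% of all windows. PFKM had 1 window with a match of the 7 it had. SLC2A3, SLC16A1, NDRG1, BNIP3L and VEGFA had no window in the table. A match describes these letters only and shows no binding.

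Counted together, 3 of the 37 genes tested rose in contact culture against monoculture (VEGFA, EPAS1 and P4HA1; 2.15% of all genes rose) and 1 fell (PFKM; 2.84% of all genes fell). At an unadjusted p under 0.05, 8 were higher (background 7.94%) and 4 lower (background 12.3%), where the 8 include LDHB, which passed the filter mainly through contact culture, where it is high. Libraries did not overlap between the groups for 8 that were higher (background 9.0%) and 4 that were lower (background 15.3%). The 8 were HK2, PKM, SLC16A3, NDRG1, P4HA1, EGLN3, VEGFA and EPAS1, and the 4 were GPI, PFKM, PGAM1 and ANKRD37. The median log2 fold change was 0.11 over the 37 and −0.08 over all genes. Scaling by relative log expression moved the median of all genes from −0.08 to 0.01 here and from −0.10 to 0.01 in conditioned medium, and turned 359 higher and 474 lower genes into 440 and 301 in contact culture, and 118 and 113 into 146 and 53 in conditioned medium. With that scaling 5 of the genes rose (EPAS1, P4HA1, PKM, SLC16A3 and VEGFA) and 0 fell.

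In conditioned medium against monoculture, limma called 0 of the 37 higher (background 0.707%) and 0 lower (background 0.677%). At an unadjusted p under 0.05, VEGFA and EPAS1 were higher (background 5.27%) and 5 genes lower, which were GPI, PFKM, PFKP, SLC2A1 and SLC16A1 (background 10.4%). The groups did not overlap for 4 that were higher (background 6.67%) and 9 that were lower (background 14.2%), and the median was −0.22 over the 37 against −0.10 over all genes. Between contact culture and conditioned medium, limma also called 0 higher (background 0.210%) and 0 lower (background 0.162%). At an unadjusted p under 0.05, 8 were higher in contact culture (HK2, PFKP, LDHB, SLC2A1, P4HA1, EGLN3, VEGFA and ANGPTL4; background 7.24%) and 1 lower (PFKFB3; background 5.01%). The groups did not overlap for 12 that were higher (background 12.4%) and 1 that was lower (background 9.93%), with a median of 0.22 against 0.00 over all genes. LDHB is among both the 8 and the 12, but it was at 0 in conditioned medium and passed the filter mainly through contact culture, so its place there was fixed by the filter.

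**Figure D2:**
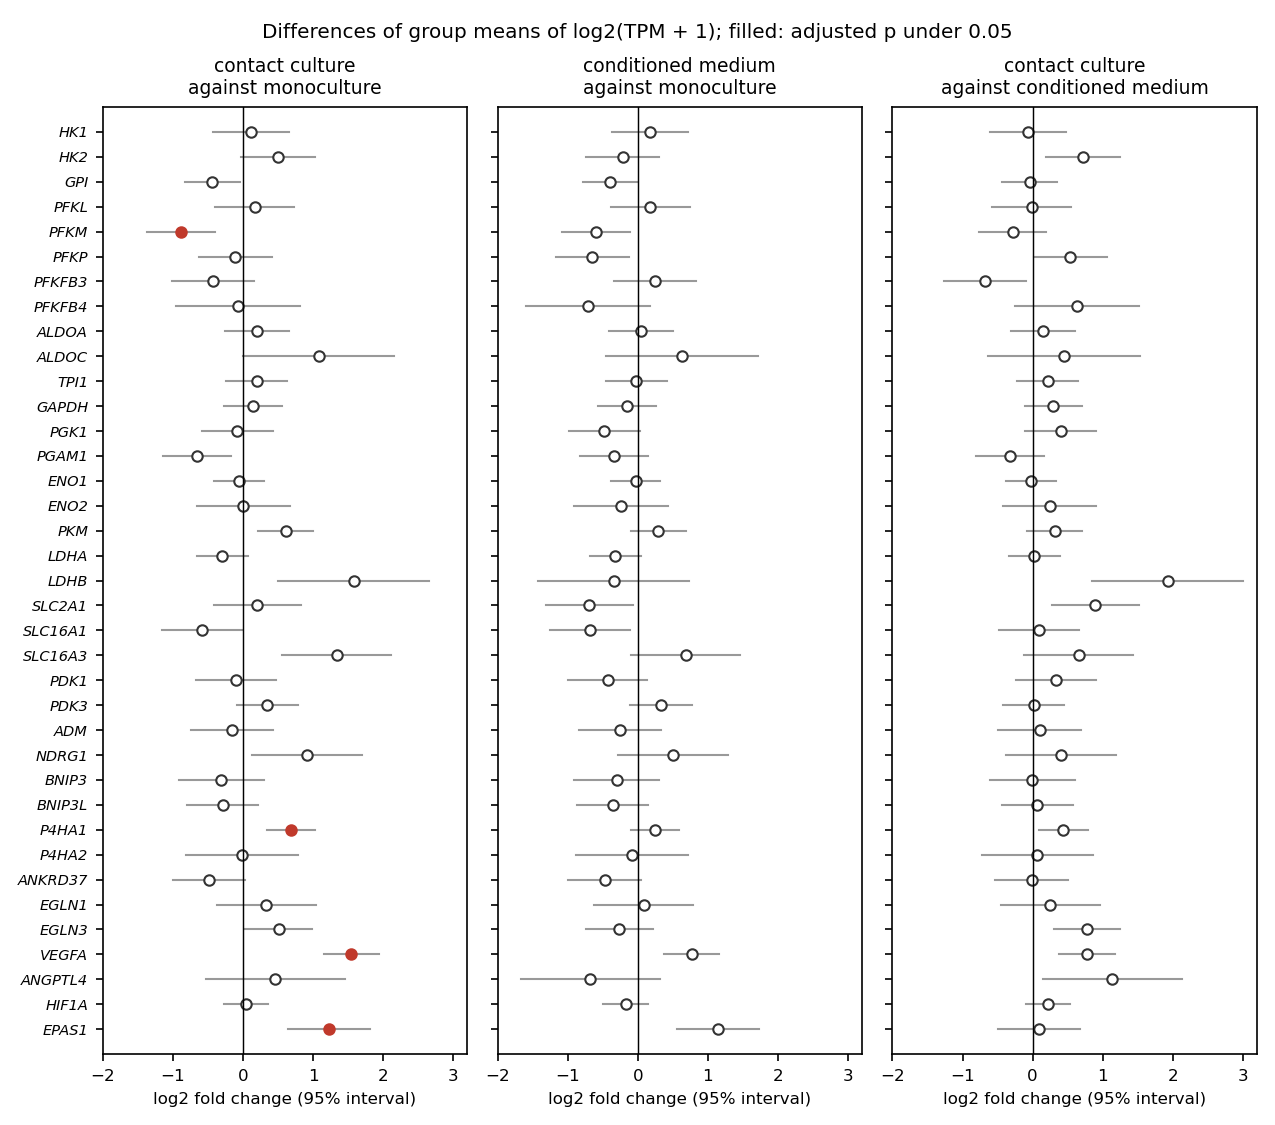
Log2 fold changes with 95% intervals from limma (horizontal axis, log2(TPM + 1) scale) of the 37 genes tested, in 3 comparisons, with filled points for an adjusted p under 0.05. In contact culture against monoculture, VEGFA at 1.55, EPAS1 at 1.23, P4HA1 at 0.69 and PFKM at −0.88 are filled, and no gene is filled in the other comparisons.

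The first steps of glycolysis trap and commit glucose. SLC2A1, the main glucose carrier of cancer cells, was at 13.6, 18.5 and 9.25 TPM in monoculture. It was at 12.3, 18.6 and 16.2 TPM in contact culture and at 7.14, 6.54 and 10.3 TPM in conditioned medium. Contact culture lay wholly above conditioned medium and overlapped monoculture. The log2 fold change was 0.20 against monoculture (95% interval −0.42 to 0.82) and 0.90 against conditioned medium (95% interval 0.28 to 1.52, adjusted p = 0.228 from limma). It was −0.69 in conditioned medium against monoculture (95% interval −1.31 to −0.07, adjusted p = 0.269).

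HK2, the hexokinase that is induced in many tumors, was near the filter, at 0.501, 0.803 and 0.537 TPM in monoculture. It was at 1.90, 0.961 and 1.08 TPM in contact culture and at 0.410, 0.226 and 0.534 TPM in conditioned medium. Each contact culture library lay above all others, but the log2 fold change of 0.50 (95% interval −0.02 to 1.03, adjusted p = 0.269) against monoculture and of 0.72 (95% interval 0.19 to 1.24, adjusted p = 0.254) against conditioned medium missed the threshold. HK1, the housekeeping hexokinase, held the larger share. Of the summed TPM of both, HK2 made up between 7.10% and 8.21% in monoculture, between 12.3% and 14.9% in contact culture, and between 2.74% and 5.80% with conditioned medium, with no overlap between any of the 3 conditions.

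PFKM, the muscle isoform of phosphofructokinase, the enzyme that commits sugar to glycolysis, fell in contact culture. It was at 15.0, 22.1 and 15.5 TPM in monoculture. It was at 9.89, 8.81 and 8.10 TPM in contact culture and at 11.9, 8.67 and 13.1 TPM in conditioned medium. Both HS5 conditions lay below all monoculture libraries and overlapped each other. The log2 fold change was −0.88 in contact culture (standard error 0.21, 95% interval −1.37 to −0.40, adjusted p = 0.0492 from limma) and −0.60 in conditioned medium (95% interval −1.08 to −0.11, adjusted p = 0.226). The call in contact culture was lost on leaving out any 1 of the 9 libraries (adjusted p 0.0518 to 0.182). PFKM (chromosome 12 from 48105139 to 48146404, plus strand) held between 42.0% and 56.0% of the summed TPM of the 3 isoforms in monoculture, between 29.4% and 39.3% in contact culture, and between 43.0% and 45.9% with conditioned medium. Contact culture was the only condition wholly below the monoculture range of this share. PFKL, the liver isoform, held between 12.4% and 17.7% in monoculture, between 22.1% and 26.6% in contact culture, and between 22.7% and 28.6% with conditioned medium. PFKP, the platelet isoform, was at 5.73 to 8.48 TPM in conditioned medium, below its range in monoculture (10.4 to 15.2 TPM) and contact culture (8.68 to 13.2 TPM), with adjusted p values of 0.223 and 0.394 from limma, respectively.

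PFKFB3 and PFKFB4 make the compound that activates phosphofructokinase. PFKFB3 was at 8.56, 15.6 and 7.42 TPM in monoculture, at 8.0, 6.71 and 6.86 TPM in contact culture and at 13.2, 13.1 and 10.2 TPM in conditioned medium. It was the only one of the 37 genes whose contact culture libraries all lay below those with conditioned medium (log2 fold change −0.68, 95% interval −1.27 to −0.10, adjusted p = 0.327). PFKFB4 was lower in level, between 0.715 and 3.52 TPM in monoculture, between 0.878 and 1.86 TPM in contact culture, and between 0.250 and 0.838 TPM with conditioned medium.

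Of the remaining upper enzymes, 0 were called in any comparison by limma, with GPI past an unadjusted p of 0.05. GPI, which isomerises glucose 6-phosphate, lay below monoculture (17.1 to 22.9 TPM) in all libraries of contact culture (12.2 to 16.3 TPM) and conditioned medium (14.3 to 15.4 TPM), with log2 fold changes of −0.44 and −0.40 (adjusted p = 0.194 and 0.313 from limma). ALDOA, the abundant aldolase, and TPI1 overlapped between all conditions, at 66.6 to 114 TPM and 60.0 to 94.0 TPM. ALDOC, the brain aldolase and a HIF target, was at 0.948, 4.68 and 0.723 TPM in monoculture, and at 5.84, 2.91 and 5.73 TPM in contact culture. The log2 fold change of 1.08 (95% interval −0.00 to 2.16, adjusted p = 0.248) turned on monoculture replicate 2, without which ALDOC was called (1.62, adjusted p = 0.0322).

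**Figure D3:**
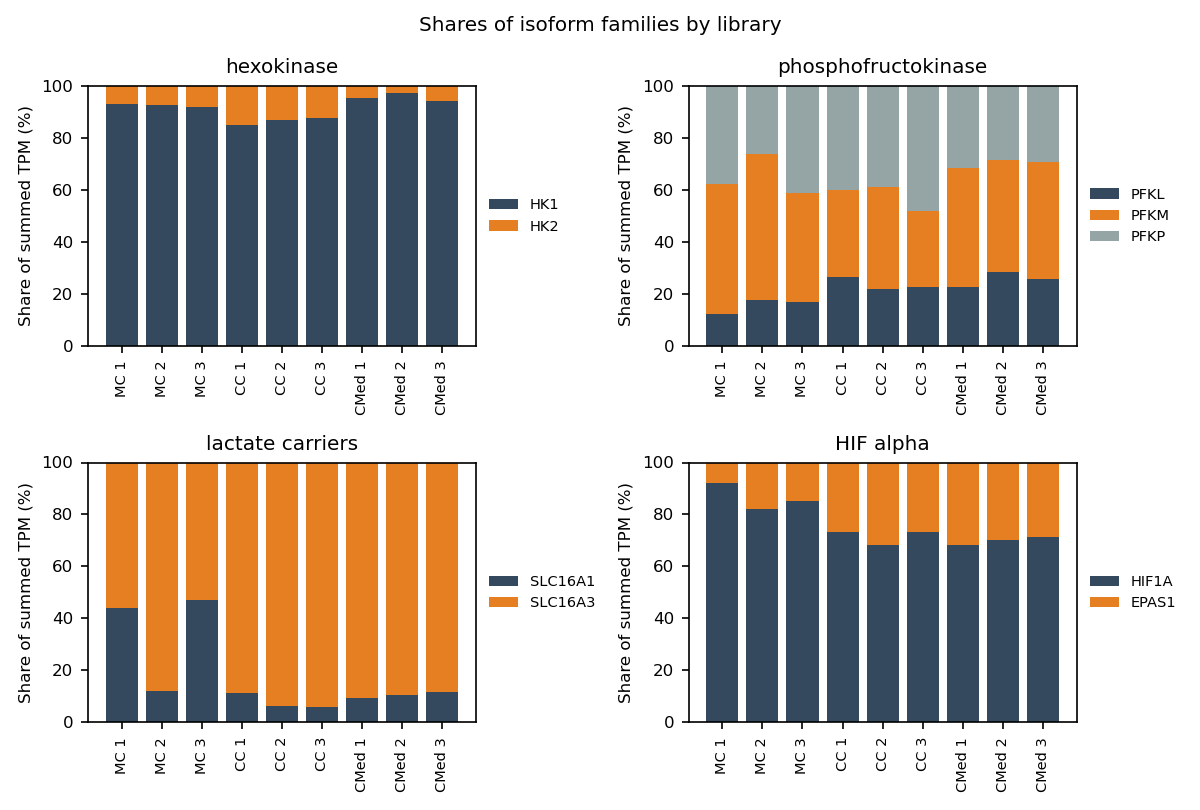
Shares of the summed TPM (vertical axis, percent) within 4 families of related genes, with 1 bar for each of the 9 libraries. HK2 took 12.3% to 14.9% in contact culture against 2.74% to 8.21% in all other libraries, and EPAS1 took at least 26.7% in each HS5 condition against at most 17.8% in monoculture.

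The lower enzymes include some of the most abundant transcripts of the 37, and 0 of them changed in any comparison by limma, with PKM and PGAM1 past an unadjusted p of 0.05 in contact culture. PKM, pyruvate kinase, was at 34.2, 29.8 and 37.5 TPM in monoculture, at 56.7, 48.0 and 51.7 TPM in contact culture and at 41.7, 34.6 and 49.6 TPM in conditioned medium. Contact culture did not overlap monoculture (log2 fold change 0.61, 95% interval 0.22 to 1.00, adjusted p = 0.0831), and the gene was called with scaling by relative log expression (0.74, adjusted p = 0.0436). The values do not separate the splice forms of this gene. PGAM1, phosphoglycerate mutase, went the other way, with 67.1 to 94.4 TPM in monoculture against 40.8 to 65.9 TPM in contact culture (−0.66, 95% interval −1.14 to −0.18, adjusted p = 0.123). GAPDH ranged from 101 to 176 TPM and ENO1 from 87.0 to 127 TPM, and both overlapped between all conditions, as did ENO2, the neuronal enolase, at 1.07 to 2.88 TPM. Several of these genes, GAPDH, PGK1, PGAM1 and the lactate dehydrogenases among them, have many processed pseudogenes, and how reads shared with those were assigned is not given in the sources used here, nor is the use of strand in counting, which bears on genes with antisense partners such as HIF1A. Summed over 17 glycolytic enzymes the monoculture level was 1410 ± 198 TPM (SD, n = 3), the level after contact culture 1291 ± 47.6 TPM (SD, n = 3), and the level with conditioned medium 1175 ± 70.1 TPM (SD, n = 3). Without replicate 2 the monoculture mean was 1298 TPM. LDHA alone made up 31.6% to 44.6% of this sum over the 9 libraries.

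LDHA, which reduces pyruvate to lactate and is a classic HIF target, was the highest of the 37. It was at 586, 726 and 527 TPM in monoculture. It was at 423, 576 and 500.0 TPM in contact culture and at 475, 481 and 504 TPM in conditioned medium. Conditioned medium lay below all monoculture libraries, and contact culture overlapped both. LDHA differed from monoculture by −0.29 on the log2 scale in contact culture (95% interval −0.66 to 0.07, adjusted p = 0.354 from limma) and −0.32 in conditioned medium (95% interval −0.68 to 0.04, adjusted p = 0.376).

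LDHB, the other subunit of the enzyme, was at or near 0 in T47D cells alone. It was listed at 0, 0 and 1.05 TPM in monoculture and at 0 in all 3 libraries of conditioned medium. In contact culture it was at 6.15, 0.806 and 3.25 TPM. Contact culture replicate 2 lay below the highest monoculture library, and LDHB passed the filter only through contact culture and monoculture replicate 3, so it was bound to differ. The adjusted p was 0.101 against monoculture (log2 fold change 1.58, 95% interval 0.50 to 2.66) and 0.0286 without contact culture replicate 2. LDHA made up at least 98.6% of the summed TPM of both subunits in every library.

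Most of the 20 stromal markers had higher means in contact culture than in monoculture, and 10 stayed under 1 TPM in every contact culture library. Of the 20, 4 had every contact culture library above every monoculture library (VIM, FN1, CAV1 and LGALS1), as had 9.0% of all genes tested. The only ones with lower means were S100A4 (23.4 against 33.25 TPM), COL1A1 (3.37 against 4.12 TPM) and the low SPARC, THY1 and PDGFRB. PDGFRB was above 0 in monoculture replicate 1 alone. VIM, an intermediate filament of mesenchymal cells, was at 1.25, 0.135 and 0.726 TPM in monoculture, at 11.7, 6.28 and 9.20 TPM in contact culture and at 0.374, 0.343 and 0.914 TPM in conditioned medium. CAV1 was listed at 0 in all monoculture libraries and at 2.98, 2.63 and 1.89 TPM in contact culture. The 16 stromal markers that were under 2 TPM in every monoculture library, a set taken after seeing the values, summed to between 2.33 and 4.0 TPM in monoculture, between 12.5 and 20.6 TPM in contact culture, and between 1.81 and 3.03 TPM with conditioned medium. Low values in monoculture chose this set, and VIM and CAV1 made up 71.0% to 77.5% of its sum in contact culture. Within contact culture, 15 of the 37 genes (40.5%), LDHB, HK2 and PKM among them, had the same order of libraries as VIM, with replicate 1 highest and replicate 2 lowest, as had 23.6% of all genes tested. Of the 3 genes called higher, VEGFA and EPAS1 were highest in replicate 2, where VIM was lowest, and P4HA1 was lowest there. The stromal markers did not share the order of VIM. FN1, at 15.96, 21.96 and 19.5 TPM, was highest in replicate 2 and had the order of VEGFA. LGALS1, at 408, 321 and 348.5 TPM, had that of VIM. The part of RNA from HS5 cells in these values was not tested, and HS5 cells alone were not analysed here.

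The lactate carriers differed from monoculture in opposite directions, neither past the threshold with all libraries. SLC16A3, which encodes the exporter MCT4 and is a HIF target, was at 3.15, 9.43 and 3.34 TPM in monoculture. It was at 10.6, 17.5 and 13.1 TPM in contact culture and at 8.95, 7.73 and 7.92 TPM in conditioned medium. Contact culture did not overlap the other conditions, and monoculture replicate 2 lay above all of conditioned medium. The log2 fold change of 1.34 in contact culture (95% interval 0.56 to 2.12, adjusted p = 0.0608 from limma) missed the threshold, and was past it without monoculture replicate 2 (adjusted p = 0.00275). SLC16A1, the carrier MCT1, was at 2.46, 1.29 and 2.98 TPM in monoculture, at 1.33, 1.15 and 0.850 TPM in contact culture and at 0.926, 0.926 and 1.05 TPM in conditioned medium. Its log2 fold changes of −0.59 and −0.68 had adjusted p values of 0.231 and 0.238, and of 0.0481 and 0.0459 without monoculture replicate 2. SLC16A3 thereby took 52.8% to 88.0% of the summed TPM of both carriers in monoculture, between 88.9% and 93.9% in contact culture, and between 88.3% and 90.6% with conditioned medium, and the 88.0% was that of monoculture replicate 2.

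PDK1 and PDK3, kinases that inhibit pyruvate dehydrogenase, overlapped between contact culture and monoculture, at 2.09 to 5.12 TPM and 3.74 to 7.06 TPM over all libraries. Among 13 other genes of the entry of pyruvate into mitochondria and its use there, 0 were higher and MPC2 fell in both HS5 conditions. Of all genes tested, 2.15% rose and 2.84% fell in contact culture, and 0.707% and 0.677% did in conditioned medium. MPC2 is a subunit of the mitochondrial pyruvate carrier. MPC2 was at 109, 68.2 and 112 TPM in monoculture, at 39.1, 36.5 and 37.2 TPM in contact culture and at 40.1, 36.3 and 48.6 TPM in conditioned medium, without overlap with monoculture. MPC2 differed from monoculture by −1.30 on the log2 scale in contact culture (standard error 0.21, adjusted p = 0.0101 from limma) and −1.17 in conditioned medium (adjusted p = 0.0332). Leaving out contact culture replicate 3, and no other library, ended the first call (0.0556). The second held in 2 of the 9 fits that left out a library, those without contact culture replicate 2 or monoculture replicate 2 (the others reached 0.148). MPC1, its partner, was at 12.2 to 22.8 TPM in monoculture, but at 20.9 to 29.1 TPM in contact culture and was not called.

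BNIP3 and BNIP3L, receptors for the removal of mitochondria, and PGK1, the first ATP-forming enzyme of glycolysis, are HIF targets that were called in no comparison. BNIP3 was at 27.6, 60.7 and 29.8 TPM in monoculture, at 30.9, 30.0 and 28.0 TPM in contact culture and at 32.8, 27.5 and 29.1 TPM in conditioned medium. PGK1 was at 184, 326 and 175 TPM in monoculture, at 216, 207 and 200.2 TPM in contact culture and at 157, 146 and 170 TPM in conditioned medium. Monoculture replicate 2 was the highest of all 9 libraries for both, and the sign of the difference between contact culture and monoculture turned on it. BNIP3 had a log2 fold change of −0.31 with it and 0.04 without it, and that of PGK1 −0.08 with it and 0.21 without it. BNIP3L was likewise at 153 TPM in monoculture replicate 2 and 76.5 to 92.7 TPM in all other libraries.

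Monoculture replicate 2 was the highest of the 3 monoculture libraries for 26 of the 37 genes (70.3%), against 39.5% of all genes tested. It was the highest of all 9 libraries for 12 of them (32.4%), against 21.5% of all genes. This was not particular to it, since contact culture replicate 1 was the highest of all 9 for 12 others (32.4%), against 11.2% of all genes. The difference of monoculture replicate 2 from the mean of monoculture replicates 1 and 3 had a median of 0.34 over the 37 and of −0.00 over all genes on the log2 scale. The difference was at least 1 for ALDOC (1.63), PFKFB4 (1.39), SLC16A3 (1.30) and BNIP3 (1.06), 10.8% of the 37 against 7.75% of all genes. VEGFA was not among these, since its level in this library was the lowest of its group. The labels say nothing that sets this library apart. Without it, 7 of the 37 genes were called in contact culture (ALDOC, EPAS1, NDRG1, P4HA1, SLC16A1, SLC16A3 and VEGFA) and 3 in conditioned medium (EPAS1, SLC16A1 and SLC16A3). Calls over all genes also grew without this library, from 4.99% to 10.3% of the genes tested in contact culture (either direction) and from 1.38% to 6.07% in conditioned medium.

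**Figure D4:**
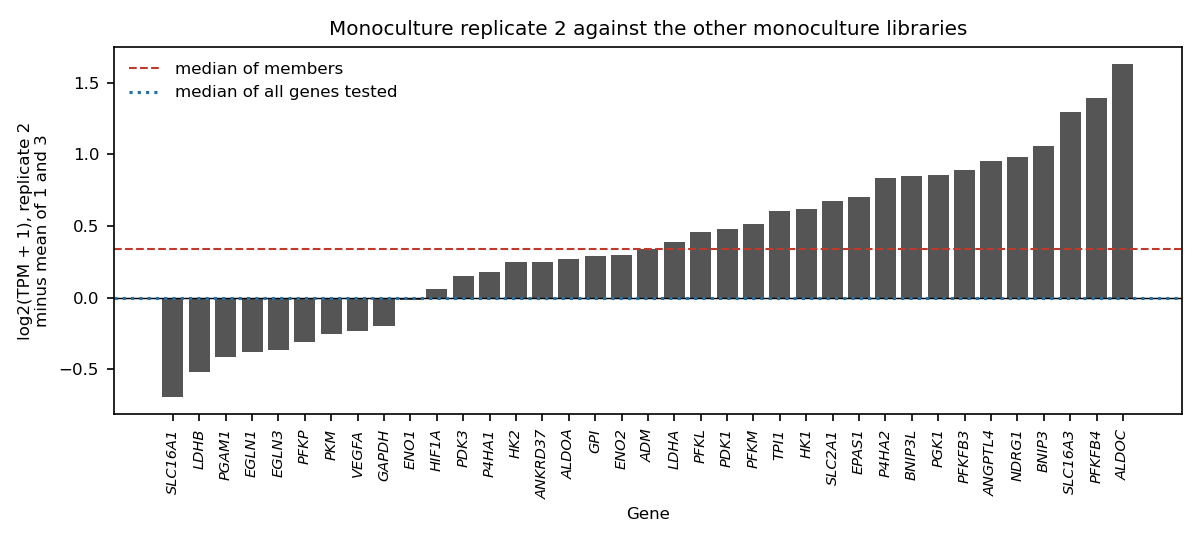
Difference in log2(TPM + 1) between monoculture replicate 2 and the mean of monoculture replicates 1 and 3 (vertical axis) for each of the 37 genes tested, ordered by size, with dashed and dotted lines for the medians of these genes and of all genes tested. The median was 0.34 for the 37 and −0.00 for all genes, and ALDOC at 1.63 is the highest.

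NDRG1, a stress gene that HIF induces, was at 0.714, 1.78 and 0.156 TPM in monoculture, but at 2.85, 1.88 and 2.33 TPM in contact culture, without overlap. Its log2 fold change of 0.91 had an adjusted p of 0.178, and of 0.0407 without monoculture replicate 2. ADM, the vasodilator adrenomedullin, ranged from 5.92 to 11.9 TPM with overlap between all conditions. ANKRD37, a small HIF target, lay below monoculture (13.6 to 16.9 TPM) in all libraries of contact culture (8.68 to 13.2 TPM) and conditioned medium (7.96 to 13.6 TPM), with adjusted p values of 0.274 and 0.358.

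Further genes of these pathways were counted over a list of 126 symbols with a value, 102 of which were tested, without the 39. In contact culture against monoculture 2 rose and 8 fell, where 2.15% of all genes rose and 2.84% fell. In conditioned medium 0 rose and 3 fell, where 0.707% and 0.677% of all genes did. Between the HS5 conditions 0 were higher and 2 lower in contact culture, against 0.210% and 0.162% of all genes. Of the 37 further HIF targets tested, DDIT4 and ERO1A rose in contact culture, and CA12, STC2, KDM4B, FAM162A, PLOD2 and TPBG fell, which is 2 higher and 6 lower beside the same 2.15% and 2.84% of all genes. With scaling by relative log expression, FAM162A, PLOD2, TPBG and VHL lost their contact culture calls (adjusted p 0.0533 to 0.0802 from limma). CA12 and MPC2 then lost their conditioned medium calls (adjusted p = 0.103 and 0.0562). Lower calls over all genes also went from 474 to 301 in contact culture and from 113 to 53 in conditioned medium. DDIT4, an inhibitor of mTORC1 that also answers to other stresses, was at 5.23, 14.2 and 4.89 TPM in monoculture, at 59.2, 35.6 and 38.6 TPM in contact culture and at 17.7, 12.3 and 14.1 TPM in conditioned medium. Its log2 fold change was 2.43 (standard error 0.37, adjusted p = 0.00767 from limma), and it was called without any 1 library. ERO1A, which oxidises protein disulfide isomerase in the endoplasmic reticulum, was at 97.1, 62.4 and 109.5 TPM in monoculture, but at 323, 163 and 226 TPM in contact culture (log2 fold change 1.38, adjusted p = 0.0272). Its call was lost without monoculture replicate 1, contact culture replicate 1 or 3, or conditioned medium replicate 1 (0.105 at the highest).

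CA12, a carbonic anhydrase of the cell surface that estrogen also induces, fell in both HS5 conditions. It was at 107, 128 and 108 TPM in monoculture, at 30.1, 35.7 and 34.0 TPM in contact culture and at 69.0, 67.0 and 69.5 TPM in conditioned medium. The 3 conditions did not overlap, and contact culture was the lowest. CA12 differed by −1.75 on the log2 scale in contact culture (standard error 0.14, adjusted p = 2.37e-04 from limma), −0.72 in conditioned medium (adjusted p = 0.0445) and −1.02 in contact culture against conditioned medium (adjusted p = 0.0234). STC2, the secreted glycoprotein stanniocalcin, fell in the same order, from 493, 534 and 402 TPM in monoculture to 206, 211 and 218 TPM in conditioned medium and 117, 138 and 128 TPM in contact culture. Its log2 fold change was −1.89 in contact culture (standard error 0.14, adjusted p = 1.96e-04) and −1.16 in conditioned medium (adjusted p = 0.00611). The contact culture calls of both genes and the conditioned medium call of STC2 held without any 1 library. The conditioned medium call of CA12 held in 2 of 9 such fits, those without contact culture replicate 2 or monoculture replicate 2 (the others reached 0.181), and its call between the HS5 conditions in 3, which also include the fit without monoculture replicate 1 (up to 0.170).

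The other HIF targets that fell in contact culture were smaller changes. KDM4B, a histone demethylase, fell by 1.04 on the log2 scale (adjusted p = 0.0126 from limma), and its call was lost only without contact culture replicate 3 (0.0743). PLOD2, a lysyl hydroxylase of collagen, fell by 0.98 (adjusted p = 0.0467), and was called only without monoculture replicate 2 among the fits that left out a library (0.00128, up to 0.170 in the others). FAM162A fell by 0.69 (adjusted p = 0.0348) and TPBG, an oncofetal surface protein, by 0.95 (adjusted p = 0.0319), with calls in 2 and 4 of the 9 such fits (adjusted p up to 0.138 and 0.116). SLC2A6, a glucose carrier of internal membranes, ranged from 2.24 to 2.56 TPM in contact culture but from 6.05 to 6.31 TPM in conditioned medium, a log2 fold change of −1.08 (adjusted p = 0.0480) that was called only without monoculture replicate 2 in those fits (up to 0.233). By limma 0 of 14 further glycolysis genes and 0 of 8 genes of the pentose phosphate pathway were called in any comparison, as were 0 of 4 glucose-sensing genes.

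**Figure D5:**
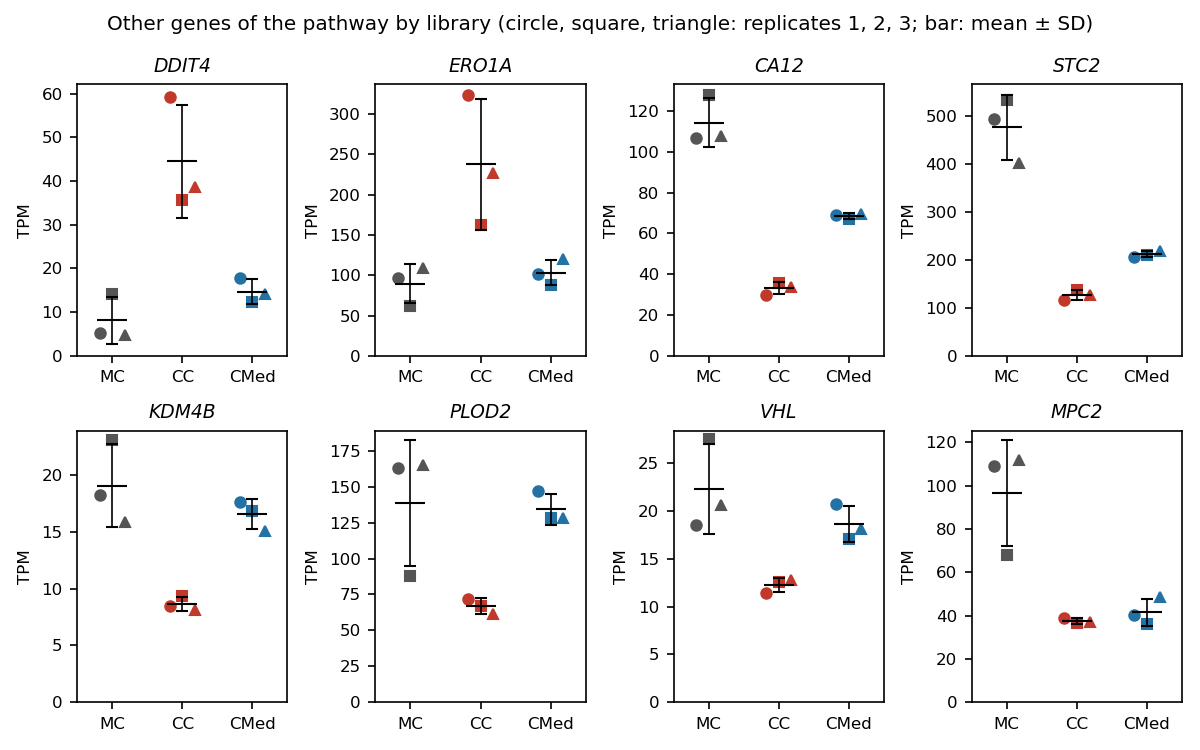
Levels in TPM (vertical axis, from 0) of 8 further genes of the pathways in monoculture (MC), contact culture (CC) and conditioned medium (CMed), with 1 point per library and bars for mean ± SD (n = 3). DDIT4 lay at 4.89 to 14.2 TPM in monoculture against 35.6 to 59.2 TPM in contact culture, while STC2 fell from at least 402 TPM to at most 138 TPM.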

How the data were processed

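RNA of 9 T47D samples was sequenced by the authors as 100 bp paired ends. Trim Galore 0.5.0 and STAR 2.6.0 are named in the submitters' processing notes. The quantifier is not given in the sources used here, nor are the genome build and annotation. The authors deposited a table of 28624 rows, taken here to hold natural log values of TPM + 1, since library sums then come near the total of TPM (between 884208 and 909618; a log2 reading would give 120543 to 127236). Rows named by RNA families (160, 0.0295% to 0.0770% of a library) were left out and rows of the 481 repeated symbols summed.

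Genes with at least 0.5 TPM in at least 3 libraries were tested as log2(TPM + 1) with limma 3.58.1 in R 4.3.3 (all 9 libraries, 1 coefficient per condition, intensity trend, robust empirical Bayes, 2-sided). The fit was also run on simulated data with independent normal noise. No simulated library stood apart from its group, so that run does not bear on monoculture replicate 2. Values per library are given for those of the 37 genes that were called, and for VEGFA, HIF1A, EPAS1, SLC2A1, LDHA and HK2. They are also given for other genes whose libraries stood out, chosen after their values were seen. Some of the further genes called are given only by name, range or fold change. The genes and lists were chosen with earlier results of these data known. Alternatives were other pseudocounts, filters and scalings, fold criteria, a fit of just the compared groups, a block for the replicate number, the largest row of a repeated symbol, and each library left out. Gene positions come from GENCODE 29 on GRCh38 by symbol, and may not be the authors' annotation. Python 3.11.15, numpy 2.4.6, pandas 2.3.3 and matplotlib 3.10.9 were used. TPM gives no counts, so no counting interval could be given.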

Additional observations from a re-analysis of the deposited data

How the results depend on the processing

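In contact culture against monoculture, 4 of the 37 genes were called, and 3 with a pseudocount of 5 or upper quartile scaling, 5 with relative log expression scaling, 1 with no filter or only the 2 groups, 2 with an absolute log2 fold change of at least 1 and 0 with one of at least 2. Over all genes, 359 higher and 474 lower became 344 and 460 with that pseudocount, 407 and 340 with upper quartile and 440 and 301 with relative log expression scaling. They became 247 and 273 (of 27635 tested) with no filter and 172 and 147 with only the 2 groups. The fold criteria left 295 and 269, and 89 and 42. Leaving out a library gave 1 to 7, with 7 only without monoculture replicate 2, while calls over all genes went from 833 to between 244 (without contact culture replicate 3) and 1727 (without monoculture replicate 2). In conditioned medium 0 became 1 with relative log expression scaling (VEGFA), and 0 to 3 on leaving out a library, with 3 only without monoculture replicate 2, while calls over all genes went from 231 to between 72 (without conditioned medium replicate 1) and 1013 (without monoculture replicate 2). Between the HS5 conditions it was 0 under every alternative.

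The labels share replicate numbers across conditions, but the correlations of the deviations of same-numbered libraries were −0.04 to 0.11, so the numbers were not taken to pair cultures. With a replicate block, 1 gene (VEGFA, adjusted p = 0.0117 from limma) was called in contact culture, and 0 in the other comparisons. Over all genes the block gave 241 higher and 268 lower in contact culture against monoculture, and 73 and 29 in conditioned medium. Between the HS5 conditions it gave 15 and 7.

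Over 50 results of single genes and 897 alternatives, 838 kept direction and side of the threshold, 37 lost the call, 10 gained it and 12 changed sign. The results that changed sign had not been called: in contact culture against monoculture PGK1 was 0.0512 with relative log expression and 0.0070 with upper quartile scaling, and −0.24 to 0.21 on leaving out a library, where SLC2A1 was −0.0354 to 0.43, BNIP3 −0.51 to 0.0435 and HIF1A −0.0270 to 0.0922. BNIP3 was −0.51 to 0.0492 in conditioned medium. Between the HS5 conditions LDHA was −0.0255 with upper quartile scaling and −0.0816 to 0.14 on leaving out a library, BNIP3 −0.0600 to 0.0641 and BNIP3L −0.00012 to 0.12. For 21 results of the further pathway genes and markers, an addition made after seeing the data, 266 of 378 alternatives kept the call, 112 lost it and 0 changed sign. The cause of these changes was not tested.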
